A study of Homo sapiens with 10 samples.

Results

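The proteasome subunit genes were followed in OVCAR-3, an established line of human ovarian carcinoma cells, by RNA sequencing of 10 libraries. The genes were taken by name, as every symbol made of PSM, a letter from A to G and a number. This gave 48 of the 58222 genes in the deposited expression table, and values were in TPM, a relative abundance scaled for transcript length and to the same total in every library. Of these genes 46 reached at least 1 TPM in at least 2 libraries and were tested, among 15167 genes in all. PSMA8, the testis alpha subunit, and PSMB11, the thymus catalytic subunit, were listed at 0 in all 10 libraries. There were 5 groups of 2 libraries, which the labels call biological replicates without saying what was kept separate, so p-values measure the spread between these libraries. All cells were grown in RPMI 1640 medium with fetal bovine serum. Control cells were untreated, Day1 cells had been in silica gel for 24 hours, and Day3 cells had been in the gel for 3 days. Extracted cells had survived 3 days in the gel and then recovered for 2 weeks in standard culture. Treated cells had survived 0.5 uM cisplatin, a drug that crosslinks DNA, for 24 hours and then recovered for 2 weeks. Extracted and Treated cells are therefore survivors, sampled after recovery. In RNA from whole cultures, fewer cells of a type and less RNA per cell cannot be told apart.

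The proteasome degrades proteins that carry ubiquitin. Its 20S core is a stack of outer rings of alpha subunits (PSMA genes), which gate the channel, and inner rings of beta subunits (PSMB genes), of which PSMB5, PSMB6 and PSMB7 cut peptide bonds. Interferon-inducible PSMB8, PSMB9 and PSMB10 can take their places to form the immunoproteasome, which favours peptides that fit class I antigen presentation. The 19S cap holds a ring of ATPases (PSMC genes) that unfold substrates and non-ATPase subunits (most PSMD genes) that bind and remove ubiquitin, whereas PSME genes encode other activators, PSMF1 an inhibitor, and PSMG genes chaperones that build the core. When proteasome activity is short, the transcription factor NRF1 (encoded by NFE2L1) is known to raise many of these genes together through antioxidant response elements.

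The promoters of 6 members on which the results turn are printed here, to set the inducible subunits and the PA28 activator gene PSME2 beside PSMC4 and PSMD8, the most abundant members. The sequences are from RefSeq on GRCh38.p14, run from 250 bases before to 50 bases after the annotated start, and are written 5′ to 3′ along the gene. Capitals mark matches on either strand to TGACNNNGC (antioxidant response element), GAAANNGAAA (interferon-stimulated response element), TTCNNNGAA (gamma-activated site) or CCAAT, the box of that name.
PSMB9 (chr6:32853942-32854241, plus strand): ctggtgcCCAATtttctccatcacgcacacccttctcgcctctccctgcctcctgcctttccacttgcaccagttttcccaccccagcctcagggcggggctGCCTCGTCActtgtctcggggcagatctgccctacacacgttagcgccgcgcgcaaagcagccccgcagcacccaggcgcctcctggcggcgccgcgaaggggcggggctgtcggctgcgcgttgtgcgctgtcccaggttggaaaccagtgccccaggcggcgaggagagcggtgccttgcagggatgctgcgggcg
PSMB8 (chr6:32844630-32844929, minus strand): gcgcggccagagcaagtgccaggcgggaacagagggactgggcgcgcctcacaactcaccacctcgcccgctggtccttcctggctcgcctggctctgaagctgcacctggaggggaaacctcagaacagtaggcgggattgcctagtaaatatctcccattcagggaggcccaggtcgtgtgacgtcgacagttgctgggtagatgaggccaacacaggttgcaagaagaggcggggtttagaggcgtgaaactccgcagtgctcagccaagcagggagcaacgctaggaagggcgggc
PSMB10 (chr16:67936801-67937100, minus strand): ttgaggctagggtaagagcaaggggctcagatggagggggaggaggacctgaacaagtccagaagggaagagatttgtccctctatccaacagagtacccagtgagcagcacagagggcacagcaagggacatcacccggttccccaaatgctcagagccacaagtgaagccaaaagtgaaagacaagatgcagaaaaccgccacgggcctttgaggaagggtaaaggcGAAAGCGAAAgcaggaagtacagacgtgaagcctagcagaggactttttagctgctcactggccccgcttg
PSME2 (chr14:24146561-24146860, minus strand): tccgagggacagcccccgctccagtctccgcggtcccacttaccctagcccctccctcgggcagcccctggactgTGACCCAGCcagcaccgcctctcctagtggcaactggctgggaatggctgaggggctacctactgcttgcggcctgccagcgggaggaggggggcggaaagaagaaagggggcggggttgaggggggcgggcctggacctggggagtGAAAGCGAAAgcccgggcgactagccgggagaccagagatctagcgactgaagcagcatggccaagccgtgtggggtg
PSMC4 (chr19:39970915-39971214, plus strand): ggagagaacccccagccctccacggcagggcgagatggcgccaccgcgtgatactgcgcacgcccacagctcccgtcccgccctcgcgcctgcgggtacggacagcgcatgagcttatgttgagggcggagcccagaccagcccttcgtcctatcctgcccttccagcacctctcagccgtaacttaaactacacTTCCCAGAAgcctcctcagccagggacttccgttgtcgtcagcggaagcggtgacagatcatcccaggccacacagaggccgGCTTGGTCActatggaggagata
PSMD8 (chr19:38374321-38374620, plus strand): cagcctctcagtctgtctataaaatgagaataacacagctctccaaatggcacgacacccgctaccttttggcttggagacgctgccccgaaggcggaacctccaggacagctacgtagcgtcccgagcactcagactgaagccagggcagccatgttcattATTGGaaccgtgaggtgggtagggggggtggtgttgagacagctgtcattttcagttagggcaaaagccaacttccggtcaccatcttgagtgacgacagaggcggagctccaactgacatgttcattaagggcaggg
The interferon-stimulated letters stood in the PSMB10 and PSME2 windows and not in those of PSMB8 and PSMB9, while the PSMB9, PSME2 and PSMC4 windows held the antioxidant response letters. The PSMB8 window held none of the 4 patterns, which says only that these letters are not in that window.

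RefSeq promoters were matched for 42 of the 48 members. The antioxidant response letters TGACNNNGC were found in 13 of the 42, or 31.0%, against 13.6% of all 27305 promoters of the same length. GAAANNGAAA was found in 6 of 42 members, or 14.3%, against 3.65% of all promoters, and these were PSMA4, PSMB4, PSMB10, PSME1, PSME2 and PSMG4. CCAAT stood in 45.2% of member promoters and 35.7% of all, and TTCNNNGAA in 11.9% and 7.88%. A match is a description of the letters and not a bound site.

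Several measures of the libraries differed between groups and touch every value in TPM. Transcripts of the mitochondrial genome took 16.7% and 15.8% of TPM in the Control libraries, 2.29% and 3.92% in Day1, 5.97% and 7.61% in Day3, and between 10.4% and 11.1% in Extracted and Treated. Small RNA genes took 14.7% in Treated replicate 2 and between 0.196% and 3.21% in the other 9 libraries. Results for the members were therefore also computed after rescaling to nuclear protein-coding genes alone, which took 73.2% of TPM in Treated replicate 2 and 94.7% in Day1 replicate 1. All 7 ovarian carcinoma markers (EPCAM, KRT8, KRT18, PAX8, MUC16, WFDC2 and MSLN) were tested, with a sum of 3790 to 5455 TPM per library. Of 7 leukocyte markers only CD14, CD68 and HLA-DRA passed the filter, and the list summed to 4.29 to 15.5 TPM.

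The share of all TPM taken by the 48 genes was high in the gel and low after cisplatin. It was 1.01% and 1.00% in Control, 1.14% and 1.18% in Day1, 1.10% and 1.08% in Day3, with 0.952% and 0.988% in Extracted and 0.847% and 0.717% in Treated. The 5 groups did not overlap, and no test was made of these sums. After rescaling to nuclear protein-coding genes the members summed to 12390 and 12192 TPM in Control, 12010 and 12565 in Day1, 12046 and 12026 in Day3, with 11320 and 11332 in Extracted and 9912 and 9802 in Treated. On that scale the Day1 libraries lay on either side of Control, the Day3 libraries just below it, and Extracted and Treated further below. The 2 most abundant members, PSMC4 and PSMD8, made up most of the difference in Extracted: together they were at 3108 and 3085 TPM in Control and 2308 and 2248 in Extracted on that scale. The other 46 genes summed to 9282 and 9107 in Control, 9012 and 9085 in Extracted, and 8308 and 8032 in Treated. In TPM as deposited those 46 were slightly higher in Extracted, at 7577 and 7922, than in Control, at 7531 and 7466.

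Levels within the complex were very unequal, although the core and cap subunits are built into it in fixed numbers. PSMC4 and PSMD8 took the first and the second rank of all members in every library, with PSMC4 first in 9 libraries and PSMD8 first in Treated replicate 2. In Control, PSMC4 lay at percentile 99.4 of tested genes. PSMA6, an alpha subunit, and PSMB4, a structural beta subunit, came next in every library, with PSMA6 at 637 and 626 TPM and PSMB4 at 589 and 591 TPM in Control. The lowest tested member in every library was PSMB9, at 2.39 and 1.84 TPM in Control. The median member had 142 and 134 TPM in the Control libraries, against 12.3 and 12.8 TPM for the median tested gene. The heat map of members by library shows these genes relative to Control.

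**Figure D1:**
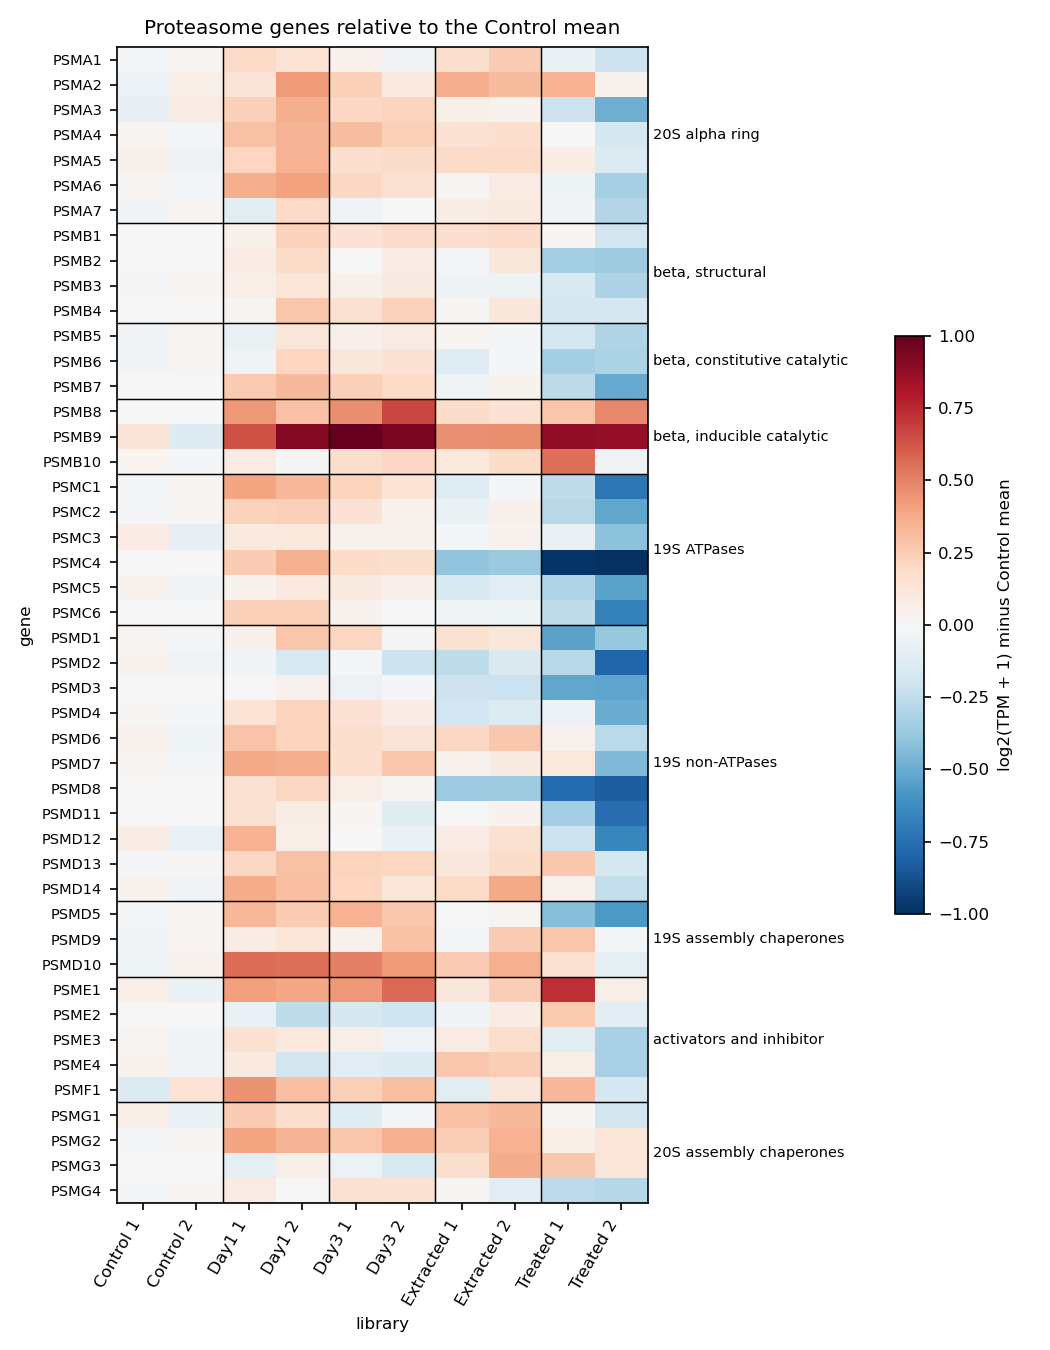
Each row is a tested member, grouped by role, and each column a library; colour gives log2(TPM + 1) minus the mean of the 2 Control libraries, with colours ending at 1 in either direction. PSMB9 is above Control in all 8 other libraries, and PSMC4 and PSMD8 are below it in Extracted and Treated. Treated replicate 2 is lower than Treated replicate 1 for most members on this scale, which is not rescaled to nuclear protein-coding genes.

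After 24 hours in the gel, 6 of 46 members rose and none fell, against 14.4% of all tested genes called higher and 6.28% called lower (limma, Benjamini-Hochberg adjusted p under 0.05 over all genes). The members that rose had different roles, as an inducible catalytic subunit (PSMB9), a cap chaperone (PSMD10), alpha subunits (PSMA6 and PSMA4), a core chaperone (PSMG2) and a cap ATPase (PSMC4). The median log2 fold change of members was 0.19, against 0.12 for all tested genes, and 42 of 46 were positive, or 91.3% against 63.2% of all tested genes. At an unadjusted p under 0.05 there were 19 members, or 41.3% against 35.8%. The share of members called was close to the background.

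PSMD10, also called gankyrin, is a cap chaperone that holds PSMC4 during assembly. It was at 41.6 and 44.3 TPM in Control, 63.8 and 63.2 in Day1, 61.3 and 58.1 in Day3, with 51.3 and 55.3 in Extracted and 47.8 and 40.0 in Treated. Both gel groups lay above all other libraries, and Treated overlapped Control. It rose by 0.55 ± 0.11 (SE) on the log2(TPM + 1) scale in Day1 (limma, adjusted p = 0.0079) and by 0.47 ± 0.11 in Day3 (limma, adjusted p = 0.028). PSMG2, a chaperone that starts the alpha ring with PSMG1, was at 76.3 and 77.4 TPM in Control, 101 and 97.3 in Day1, 93.5 and 98.7 in Day3, with 91.3 and 98.2 in Extracted and 80.5 and 83.5 in Treated. It was lowest in Control, and its values in the gel and after extraction overlapped each other. It rose by 0.36 ± 0.088 in Day1 (limma, adjusted p = 0.019) and by 0.32 ± 0.088 in Day3 (limma, adjusted p = 0.0497). The Day1 call for PSMG2 was lost after rescaling to nuclear protein-coding genes (0.16) and so was the Day3 call (0.17), whereas PSMD10 was called on that scale in both (0.35 and 0.32). The Day1 call for PSMD10 was lost without Control replicate 1. Its Day3 call was lost with no filter, without any 1 of the 4 libraries compared and without either Extracted library. The PSMG2 calls were lost without either Control library as well, and with median-of-ratios scaling. Its Day1 call was also lost with the compared groups alone and without Day1 replicate 1. Its Day3 call was also lost with a pseudocount of 0.1, with a block for the replicate number and without either Day3 or either Extracted library.

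The alpha subunits that rose in Day1 line the entrance of the core. PSMA6 was at 637 and 626 TPM in Control, 813 and 834 in Day1, 729 and 703 in Day3, with 636 and 669 in Extracted and 608 and 500 in Treated. Day1 was the highest group without overlap, at 0.38 ± 0.10 above Control on the log2 scale (limma, adjusted p = 0.024). PSMA4 was at 207 and 202 TPM in Control, 251 and 259 in Day1, 253 and 241 in Day3, with 226 and 229 in Extracted and 204 and 181 in Treated. Its Day1 values were above Control but overlapped those of Day3, and the Day1 fold change was 0.32 ± 0.088 (limma, adjusted p = 0.031). Rescaled to nuclear protein-coding genes, neither PSMA6 (0.17) nor PSMA4 (0.11) was called in Day1, and both calls were lost without any 1 of the 4 libraries compared. The PSMA6 call was also lost with no filter. That for PSMA4 was also lost with median-of-ratios scaling, with the compared groups alone and without any 1 of the Day3 or Extracted libraries. On the scale of nuclear protein-coding genes 2 members were called higher and 1 lower in Day1, beside 1037 higher and 2014 lower of 13140 genes. The median member was at -0.02 and the median of all genes moved from 0.12 to -0.06.

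After 3 days in the gel 4 members rose and none fell: PSMB9, PSMB8, PSMD10 and PSMG2. The background was 5.18% of tested genes called higher and 4.64% called lower. The median member was at 0.15 on the log2 scale, against 0.06 for all tested genes. Between Day3 and Day1 no member was called by limma, against 2.35% of all tested genes called in either direction, and 1 of 46 members had an unadjusted p under 0.05, against 17.1% of all tested genes. That member was PSMG1, the partner of PSMG2, at -0.28 ± 0.10 in Day3 relative to Day1 (limma, adjusted p = 0.19).

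**Figure D2:**
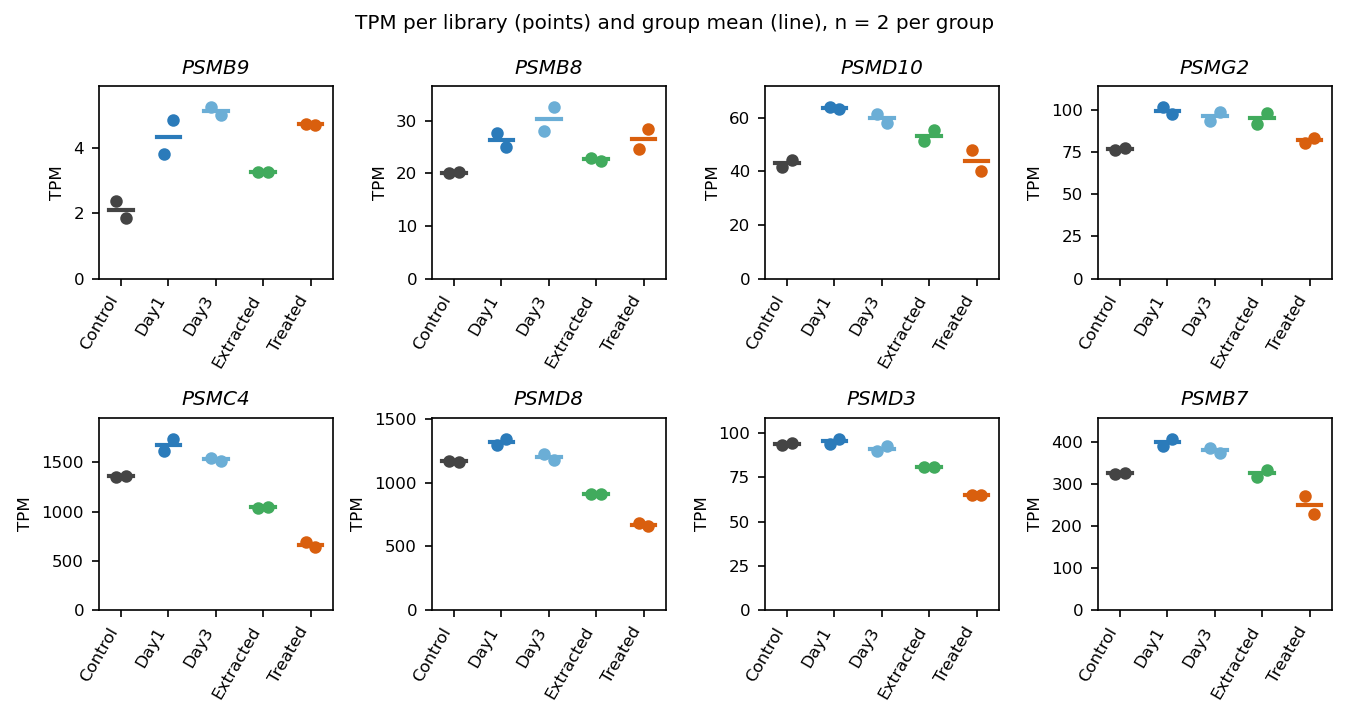
TPM on a linear axis from 0 for 8 members, with a point for each library and a line at the mean of the 2 libraries of a group. PSMB9 and PSMB8 are lowest in Control, PSMD10 is highest in the gel, and PSMC4, PSMD8 and PSMD3 step down from Control to Extracted to Treated.

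Of the 3 inducible catalytic subunits, PSMB9 rose in Day1, Day3 and Treated, PSMB8 rose in Day3 and Treated, and PSMB10 was not called against Control. PSMB9 (ENSG00000240065, chr6:32844136-32859585 on GRCh38, GENCODE 29, plus strand) replaces PSMB6. It was at 2.39 and 1.84 TPM in Control, 3.82 and 4.86 in Day1, 5.25 and 5.01 in Day3, with 3.27 and 3.28 in Extracted and 4.73 and 4.71 in Treated. Control was the lowest group and Extracted the next, and both were below every gel and cisplatin library. PSMB9 rose by 0.78 ± 0.16 in Day1 (limma, adjusted p = 0.0093), by 0.98 ± 0.16 in Day3 (limma, adjusted p = 0.0066) and by 0.88 ± 0.16 in Treated (limma, adjusted p = 0.0040). The level is low, so the added pseudocount of 1 shrinks these values, and the ratios of mean TPM to Control were 2.05, 2.42 and 2.23. In Extracted the difference from Control was 0.46 ± 0.16 and was not called (limma, adjusted p = 0.17). The Day1 call was lost without Control replicate 2 and with the compared groups alone, and the Day3 call without Control replicate 2 or Day3 replicate 1, while the Treated call held in every alternative run.

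PSMB8 (ENSG00000204264, chr6:32840717-32844703, minus strand) replaces PSMB5. It was at 20.1 and 20.2 TPM in Control, 27.6 and 24.9 in Day1, 28.1 and 32.6 in Day3, with 23.0 and 22.4 in Extracted and 24.6 and 28.5 in Treated. All libraries of the other groups were above Control. PSMB8 rose by 0.56 ± 0.12 in Day3 (limma, adjusted p = 0.019) and by 0.38 ± 0.12 in Treated (limma, adjusted p = 0.043), and Day1 at 0.36 ± 0.12 was not called (limma, adjusted p = 0.054). The Day3 call was lost after rescaling to nuclear protein-coding genes (0.42) and without any 1 of its 4 libraries, and the Treated call without Treated replicate 2 or any 1 of the Control, Day3 or Extracted libraries, with no filter and with the compared groups alone. In GENCODE 29 the PSMB8 and PSMB9 genes overlap by 568 bases on opposite strands, and without a stated strand setting the reads there cannot be told apart. That overlap comes from the GENCODE start of PSMB9 at 32844136. The RefSeq promoter window printed for PSMB9 (chr6:32853942-32854241) lies beyond the end of PSMB8.

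PSMB10, the inducible partner of PSMB7, was not called in any comparison with Control. It was at 32.4 and 31.5 TPM in Control, 33.9 and 32.2 in Day1, 36.1 and 37.0 in Day3, with 34.4 and 36.3 in Extracted and 47.3 and 31.2 in Treated. The Treated libraries disagreed in TPM, with replicate 1 the highest of all and replicate 2 the lowest. After rescaling to nuclear protein-coding genes they were at 55.3 and 42.6, above every other library, of which Extracted replicate 2 was the highest at 41.7. The sum of the 7 leukocyte markers was 9.12 and 7.18 TPM in Control, 8.29 and 11.2 in Day1, 14.5 and 15.5 in Day3, with 5.32 and 4.29 in Extracted and 10.5 and 11.6 in Treated. The defining leukocyte gene PTPRC was at or below 0.306 TPM and CD3E at or below 0.057 TPM in every library, and LYZ and CD79A at or below 0.484 and 0.204 TPM. HLA-DRA, which epithelial cells can also express, rose in Day1 by 0.76 and in Day3 by 1.5 and fell in Extracted by 0.91 on the log2 scale (limma), and was at -0.31 in Treated, which was not called. CD68 had another pattern, at 5.21 and 2.59 TPM in Control, 1.12 and 2.53 in Day1, 1.43 and 2.34 in Day3, with 3.28 and 2.45 in Extracted and 6.21 and 7.46 in Treated. Its gel libraries were below Control and its Treated libraries above all others, and neither CD68 nor CD14 was called against Control. The part of leukocytes in the inducible subunits was not tested beyond these values.

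Of the constitutive catalytic subunits none was called in the gel or in Extracted, and PSMB6 and PSMB7 fell in Treated. PSMB5, with chymotrypsin-like activity, was at 118 and 123 TPM in Control, 115 and 131 in Day1, 125 and 128 in Day3, with 123 and 120 in Extracted and 107 and 98.0 in Treated. It was lowest in Treated but not called there, at -0.24 ± 0.096 (limma, adjusted p = 0.098). PSMB6, with caspase-like activity, was at 129 and 133 TPM in Control, 128 and 152 in Day1, 142 and 145 in Day3, with 121 and 130 in Extracted and 103 and 105 in Treated. Treated was the lowest group without overlap, at -0.33 ± 0.10 (limma, adjusted p = 0.039), a call that was lost after rescaling to nuclear protein-coding genes (-0.28) and without any 1 of the 4 libraries compared. That call was also lost with no filter, with median-of-ratios scaling, with the compared groups alone and without any 1 of the Day3 or Extracted libraries. PSMB7, with trypsin-like activity, was at 324 and 326 TPM in Control, 391 and 407 in Day1, 384 and 374 in Day3, with 317 and 333 in Extracted and 271 and 229 in Treated. Its gel libraries were the highest and its Treated libraries the lowest, and in Treated it fell by 0.39 ± 0.096 on the log2 scale (limma, adjusted p = 0.018), a call lost without either Control library and with the compared groups alone.

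Ratios within a library do not depend on scaling and are given without a test, since an exact permutation of 2 against 2 libraries cannot reach a small p. PSMB9 was 1.86% and 1.38% of PSMB6 in Control, 2.99% and 3.20% in Day1, 3.69% and 3.46% in Day3, with 2.71% and 2.53% in Extracted and 4.58% and 4.50% in Treated. PSMB8 was 17.0% and 16.4% of PSMB5 in Control, 24.0% and 19% in Day1, 22.5% and 25.4% in Day3, with 18.8% and 18.7% in Extracted and 23.1% and 29.1% in Treated. PSMB10 was 9.98% and 9.65% of PSMB7 in Control, 8.66% and 7.91% in Day1, 9.40% and 9.90% in Day3, with 10.8% and 10.9% in Extracted and 17.4% and 13.6% in Treated. For the first pair and the second, Control was the lowest group and did not overlap with any other, and for the third Day1 was the lowest and Treated the highest. In every library each inducible subunit stayed below its constitutive partner.

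**Figure D3:**
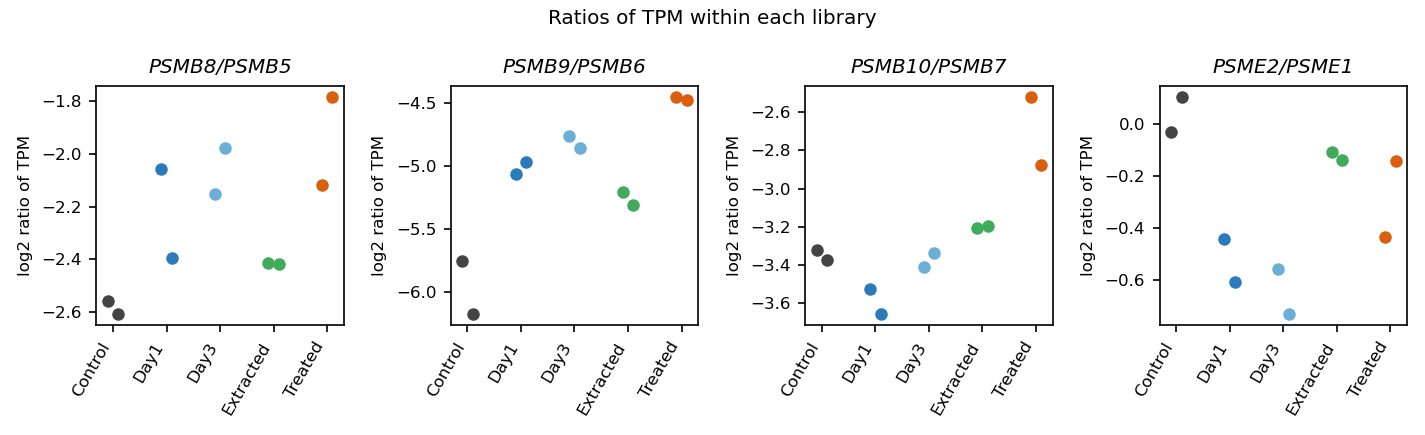
Log2 ratio of TPM within each library for the inducible against the constitutive catalytic subunits and for PSME2 against PSME1, with a point per library. Treated lies highest for PSMB9 and PSMB10, and both gel groups lie below Control for PSME2 against PSME1.

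PSME1 and PSME2 encode the alternating subunits of the PA28 activator, which caps the core without ATP. PSME1 was at 184 and 168 TPM in Control, 234 and 230 in Day1, 238 and 260 in Day3, with 190 and 209 in Extracted and 293 and 184 in Treated. PSME2 was at 180 and 181 TPM in Control, 172 and 151 in Day1, 162 and 157 in Day3, with 177 and 190 in Extracted and 216 and 167 in Treated. In the gel PSME1 was above Control and PSME2 below it without overlap, although neither was called in TPM (PSME1 in Day3 0.50 ± 0.18, limma, adjusted p = 0.11). After rescaling to nuclear protein-coding genes, PSME2 was called lower in Day1 (-0.37) and in Day3 (-0.33). The 2 genes had similar levels in Control and differed in the gel. PSME2 was 97.9% and 107% of PSME1 in Control, 73.6% and 65.7% in Day1, 68.0% and 60.3% in Day3, with 92.8% and 90.7% in Extracted and 74.0% and 90.6% in Treated. Treated replicate 1 lay with the gel libraries and Treated replicate 2 with Extracted.

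After recovery from the gel 2 of 46 members were called, both lower, against 1.13% of tested genes called lower and 0.857% called higher. These were PSMC4 and PSMD8, both in the 19S cap. The median member was at 0.06 on the log2 scale, against -0.02 for all tested genes, and 33 of 46 were positive, or 71.7% against 47.2%. At an unadjusted p under 0.05 there were 11 members, or 23.9% against 18.0%. PSMC4 (ENSG00000013275, chr19:39971005-39981441, plus strand) is an ATPase of the cap ring. It was at 1355 and 1364 TPM in Control, 1619 and 1738 in Day1, 1547 and 1518 in Day3, with 1032 and 1051 in Extracted and 687 and 637 in Treated. The 5 groups did not overlap, with the gel above Control, Extracted below it and Treated lowest. PSMC4 rose in Day1 by 0.30 ± 0.081 (limma, adjusted p = 0.027), fell in Extracted by 0.38 ± 0.081 (limma, adjusted p = 0.045) and fell in Treated by 1.04 ± 0.081 on the log2 scale (limma, adjusted p = 5.4e-05). The Day1 call was lost without any 1 of the Control, Day3 or Extracted libraries or Day1 replicate 2, with no filter and with median-of-ratios scaling. It was also lost after rescaling to nuclear protein-coding genes (0.09), where the Extracted and Treated values were -0.45 and -0.99.

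PSMD8 (ENSG00000099341, chr19:38374536-38383824, plus strand) is a subunit of the lid, the part of the cap that removes ubiquitin. It was at 1167 and 1166 TPM in Control, 1295 and 1344 in Day1, 1223 and 1176 in Day3, with 908 and 909 in Extracted and 683 and 658 in Treated. Extracted and Treated were the low groups, in the same order as for PSMC4. The gel groups were above Control in TPM but not after rescaling to nuclear protein-coding genes, where PSMD8 was at 1438 and 1422 in Control, 1368 and 1428 in Day1, and 1342 and 1311 in Day3. It fell by 0.36 ± 0.076 in Extracted (limma, adjusted p = 0.046) and by 0.80 ± 0.076 in Treated (limma, adjusted p = 0.00017). Both Extracted calls were lost without any 1 of the Control, Day3 or Extracted libraries, with no filter and with a block for the replicate number. The PSMC4 and PSMD8 calls in Treated held in every alternative run.

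Recovery was also compared with the cells still in the gel. In Extracted relative to Day3, 2 members were higher (background 6.3%) and 4 lower (background 10.8%) in TPM. The balance depended on the scaling. After rescaling to nuclear protein-coding genes 5 members were higher and 2 lower, beside 1504 higher and 1506 lower of 13140 genes. Median-of-ratios scaling also gave 5 higher and 2 lower, beside 1633 higher and 1507 lower of 15176 genes. On neither scale were PSMB8 and PSMB9 called. In TPM the members that fell were PSMC4 by 0.56 ± 0.081 (limma, adjusted p = 0.0020), PSMB9 by 0.52 ± 0.16 (limma, adjusted p = 0.048), PSMD8 by 0.40 ± 0.076 (limma, adjusted p = 0.0068) and PSMB8 by 0.40 ± 0.12 (limma, adjusted p = 0.045). Those that rose were core chaperones, which help the alpha ring form. PSMG1 was at 138 and 126 TPM in Control, 157 and 148 in Day1, 121 and 130 in Day3, with 162 and 166 in Extracted and 133 and 116 in Treated. It was 0.38 ± 0.10 higher in Extracted than in Day3 (limma, adjusted p = 0.028), and its Extracted libraries were the highest of all. PSMG3 was at 45.1 and 45.1 TPM in Control, 42.0 and 47.0 in Day1, 43.2 and 40.6 in Day3, with 50.4 and 58.6 in Extracted and 54.6 and 49.0 in Treated. It was 0.37 ± 0.11 higher in Extracted than in Day3 (limma, adjusted p = 0.049), with Extracted and Treated overlapping above the rest. Of these 6 calls, that for PSMC4 was kept without any 1 of the 4 libraries compared.

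In cells that had recovered for 2 weeks from cisplatin, 15 of 46 members fell and 2 rose, against 18.2% of tested genes called lower and 6.28% called higher. The falls were mostly in the 19S cap, where 5 of 6 ATPases and 5 of 11 non-ATPase subunits were lower, with medians of -0.44 and -0.43 on the log2 scale. In the core, 2 of 3 constitutive catalytic subunits, 1 of 4 structural beta subunits (PSMB2) and 1 of 7 alpha subunits (PSMA3) were lower. None of the 5 activators and inhibitor and none of the 4 core chaperones was called, and 1 of 3 cap chaperones (PSMD5) was lower. The members that rose were PSMB8 and PSMB9, described above. The median over members was -0.18, against -0.15 for all tested genes, so the members as a whole lay close to the background while their share called lower was above it. No test of that difference was made. Members are more abundant than most tested genes, and the background rose when a higher level was asked for. With the filter at 5 TPM 24.0% of 11114 genes and 16 of 46 members were lower.

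Among the cap genes that fell, PSMC4 and PSMD8 had the largest falls. PSMD11, a scaffold subunit of the lid, was at 78.1 and 78.3 TPM in Control, 86.9 and 82.4 in Day1, 79.2 and 71.7 in Day3, with 78.5 and 80.3 in Extracted and 61.7 and 45.6 in Treated. The Treated libraries were below all others and differed from each other, and the fall was 0.55 ± 0.13 on the log2 scale (limma, adjusted p = 0.015). This call was lost without either Control library and with the compared groups alone. PSMD2, a base subunit that docks ubiquitin receptors, was at 417 and 395 TPM in Control, 399 and 366 in Day1, 403 and 352 in Day3, with 340 and 367 in Extracted and 334 and 233 in Treated. Treated was again the lowest group with a wide spread, at -0.54 ± 0.15 (limma, adjusted p = 0.028). The PSMD2 call was lost without Treated replicate 2 or either Control library, with no filter and with the compared groups alone. PSMD3, another lid subunit, was at 93.4 and 94.2 TPM in Control, 94.1 and 96.7 in Day1, 90.0 and 92.6 in Day3, with 81.0 and 80.7 in Extracted and 65.0 and 64.8 in Treated. Its replicates lay close together in every group, and Treated was 0.52 ± 0.083 below Control (limma, adjusted p = 0.0022), a call kept in every alternative run. PSMD5, the cap chaperone that holds PSMC2, was at 33.1 and 33.9 TPM in Control, 42.4 and 40.2 in Day1, 42.9 and 40.5 in Day3, with 33.5 and 34.1 in Extracted and 24.7 and 22.2 in Treated. It was lowest in Treated, at -0.50 ± 0.10 (limma, adjusted p = 0.0069), and highest in the gel, where the difference was not called. The Treated call was lost without Control replicate 2 and with the compared groups alone.

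The remaining 7 members that fell in Treated were PSMC1, PSMC2, PSMC5 and PSMC6 of the ATPase ring, the base subunit PSMD1, PSMA3 and PSMB2. Their log2 fold changes ran from -0.49 for PSMC1 to -0.35 for PSMA3. PSMC3 was the ATPase that was not called, at 220 and 196 TPM in Control and 197 and 156 in Treated. Treated replicate 2, the library with 14.7% of TPM in small RNA genes, was below Treated replicate 1 in TPM for most members. The members summed to 8469 TPM in replicate 1 and 7174 in replicate 2. After rescaling to nuclear protein-coding genes these sums were 9912 and 9802. On that scale 16 members were lower and 3 higher in Treated, beside 3029 lower and 1320 higher of 13140 genes. With median-of-ratios scaling, which moves the median of all genes from -0.15 to 0.00, 11 were lower and 7 higher. Of all 15176 genes in that fit 1756 were lower and 1879 higher. Without Control replicate 1 or 2 the lower calls dropped to 4 and 3, without Treated replicate 1 they were 23 and without Treated replicate 2 they were 10.

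**Figure D4:**
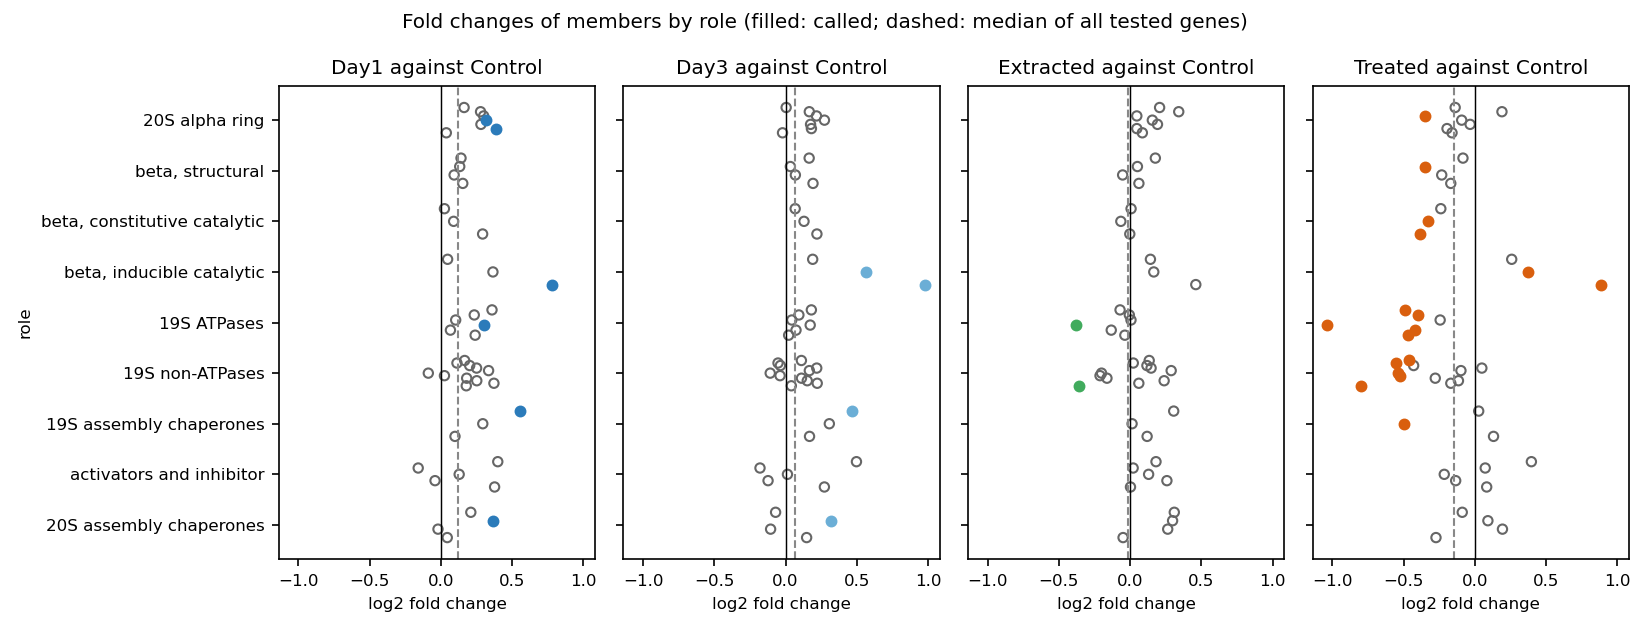
Log2 fold change of each tested member against Control, by role, in 4 panels; filled points were called by limma, open points were not, and the dashed line is the median of all 15167 tested genes. In Treated the ATPases and non-ATPase subunits of the cap lie mostly left of the dashed line and the 3 inducible catalytic subunits right of it.

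The cisplatin survivors were also set against the gel survivors, which had the same recovery time, in a contrast that does not use the Control means. In Treated relative to Extracted 15 members were lower and none higher, against 8.87% of tested genes called lower and 3.24% called higher, and the median member was at -0.26 against -0.13 for all tested genes. The 15 lower members included 3 of 6 ATPases and 5 of 11 non-ATPase subunits of the cap. With the filter at 5 TPM 17 members were lower, beside 1509 of 11114 genes. The largest falls were in PSMC4 (0.65 ± 0.081, limma, adjusted p = 0.0021), PSMD1, PSMD11 (0.57 ± 0.13, limma, adjusted p = 0.025), PSMD12, PSMD5 (0.51 ± 0.10, limma, adjusted p = 0.015) and PSMD8 (0.44 ± 0.076, limma, adjusted p = 0.0098). PSMD1, a large base subunit, was at 119 and 116 TPM in Control, 122 and 143 in Day1, 136 and 118 in Day3, with 131 and 127 in Extracted and 80.6 and 89.8 in Treated. Treated was below every other library, and the fall from Extracted was 0.59 ± 0.11 on the log2 scale (limma, adjusted p = 0.013). PSMD12, a lid subunit, was at 146 and 131 TPM in Control, 176 and 144 in Day1, 138 and 132 in Day3, with 147 and 154 in Extracted and 120 and 87.5 in Treated. Here too both Treated libraries were lowest, with a wide spread, and the fall was 0.55 ± 0.15 (limma, adjusted p = 0.042). The number of members called depended on the libraries: it was 6 without Treated replicate 2, 32 without Treated replicate 1 and 1 without either Extracted library. It was 5 with median-of-ratios scaling, beside 969 higher and 722 lower of 15176 genes. It was 0 when these 2 groups were fitted alone, beside 92 higher and 37 lower of 15167 genes, and the PSMC4 call was lost there as well.

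PSMC4 and PSMD8 share a place in the genome. Their starts lie 1.60 Mb apart on chromosome 19, and both stepped down from Control to Extracted to Treated, so the genes around them were described after these values had been seen. In Treated against Control, the stretch from 2 Mb before to 0.5 Mb after the PSMC4 start held 71 tested genes that were not members. Of these 36 were lower and 2 higher, or 50.7% lower, with a median log2 fold change of -0.54. In the next stretch, from 0.5 to 2 Mb after that start, 1 of 23 genes was lower and 6 were higher, with a median of 0.14. From 8 to 2 Mb before the start 53 of 114 genes were lower and 2 higher, with a median of -0.44, and from 2 to 4 Mb after it 4 of 31 were lower and 3 higher. The background of 18.2% called lower lay between the 2 sides. The edges of these stretches were also chosen after the values had been seen, so the difference between them is no test of a boundary.

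The same stretches were read in the gel survivors, against the same Control libraries. In Extracted 13 of 71 genes from 2 Mb before to 0.5 Mb after the PSMC4 start were lower, or 18.3% against a background of 1.13%, with a median of -0.28, and none of the 23 genes beyond was called, with a median of 0.11. From 8 to 2 Mb before the start 2 of 114 were lower in Extracted, or 1.75%, near that background, with a median of -0.17, where Treated had 46.5% lower. None of the 31 genes from 2 to 4 Mb after it was called in Extracted. In Day1 the stretch around PSMC4 held 14 higher and 11 lower genes of 71, or 15.5% lower. All tested genes had 14.4% called higher and 6.28% lower. The median of the stretch was -0.02, against 0.12 for all tested genes. In Day3 it held 7 higher and 7 lower, or 9.86% lower, against 5.18% and 4.64% of all tested genes. Its median there was 0.03, against 0.06. FBL, which encodes the ribosomal RNA methyltransferase fibrillarin (chr19:39834458-39846414, minus strand), was the nearest gene before PSMC4 with at least 100 TPM in Control. It was at 2562 and 2472 TPM in Control, 2365 and 2447 in Day1, 2548 and 2606 in Day3, with 1873 and 1856 in Extracted and 1309 and 1233 in Treated. Extracted and Treated were thus its low groups, in the same order as for PSMC4, and it fell in Treated by 0.99 ± 0.078 on the log2 scale (limma, adjusted p = 5.4e-05). SNRPA, a splicing gene at chr19:40750637-40765389 and the nearest such gene beyond 0.5 Mb, was at 116 and 116 TPM in Control, 139 and 125 in Extracted, and 134 and 107 in Treated. Its Treated libraries lay on either side of Control (0.04 ± 0.12, limma, adjusted p = 0.82). DNA copy number was not measured here, and its part in the levels of PSMC4 and PSMD8 was not tested.

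**Figure D5:**
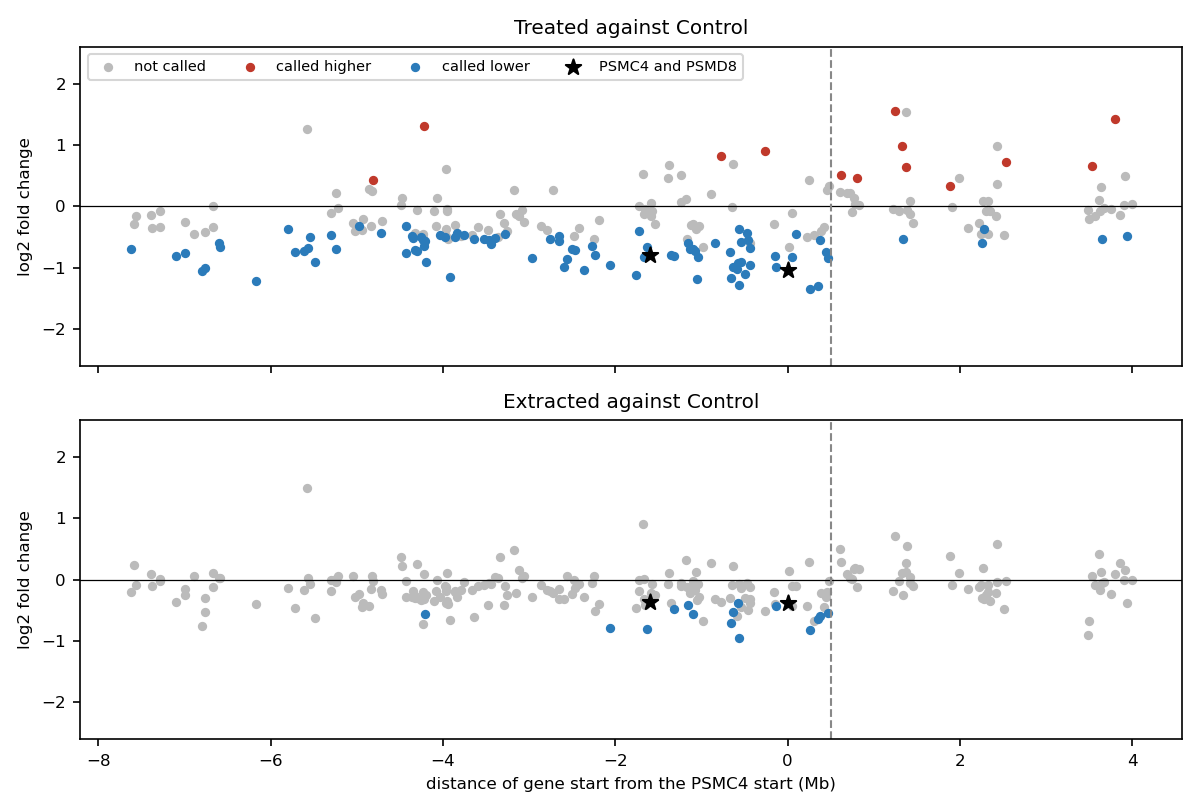
Log2 fold change of each tested gene against the distance of its start from that of PSMC4, in Treated and in Extracted against Control; stars are PSMC4 and PSMD8, blue and red points are genes called lower and higher by limma, and the dashed line is at 0.5 Mb. In Treated 36 of 71 other genes from 2 Mb before to 0.5 Mb after PSMC4 are lower, against 1 of 23 in the next 1.5 Mb. These edges were chosen after the values had been seen.

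Neighbours of other members were read the same way, over 1 Mb on either side. Besides PSMC4 and PSMD8, 13 members fell in Treated. The share of their neighbours called lower was above the background of 18.2% for 6 of them and at or below it for 7, and it was above it for 14 of the 29 members that were not called. Among the 13 that fell it was highest around PSMC6 on chromosome 14, where 7 of 11 neighbours were lower, and lowest around PSMC2 on chromosome 7, with 1 of 17. Around PSMD2 on chromosome 3, 11 of 24 were lower, and around PSMD3 on chromosome 17, 6 of 31. PSMD10, at 0.03 in Treated, had 4 of 7 neighbours lower. PSMB8 and PSMB9 went against their surroundings: in Treated they rose while 20 of the 53 other tested genes within 1 Mb were lower and 4 were higher, with a median of -0.33.

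The genes that work with the proteasome were described from 5 lists. Their counts are read beside all tested genes, of which 14.4% were called higher in Day1 (median 0.12) and 18.2% lower in Treated (median -0.15). The values of these lists are given in TPM alone, without rescaling to nuclear protein-coding genes. On that scale the median of all genes in Day1 was -0.06, and the Day1 calls of the members PSMA6 and PSMA4 were lost. Of 18 partners, which include ubiquitin receptors, shuttles and assembly factors, 7 rose in Day1 and none fell, or 38.9%, with a median of 0.27. Among the rises were AKIRIN2, which brings proteasomes into the nucleus (0.64 ± 0.097, limma, adjusted p = 0.0026), and ZFAND2A (0.61 ± 0.19, limma, adjusted p = 0.047). None was called in Day3 or Extracted; the most abundant partners, SEM1 and ADRM1, were at 0.04 and 0.12 in Day3 and at 0.03 each in Extracted. In Treated 5 of 18 fell and none rose, or 27.8%, with a median of -0.18 close to that of all genes, and the largest falls were in the shuttles UBQLN1 (0.76 ± 0.10, limma, adjusted p = 0.0012), UBQLN4 (0.74 ± 0.099, limma, adjusted p = 0.00098) and RAD23B (0.64 ± 0.099, limma, adjusted p = 0.0021).

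Of 10 genes of the NRF1 and NRF2 system 4 rose in Day1 and none fell: MAFF, NFE2L2 (which encodes NRF2, 0.69 ± 0.12, limma, adjusted p = 0.0042), NGLY1 (which activates NRF1 by removing sugars, 0.50 ± 0.15, limma, adjusted p = 0.041) and MAFG. MAFF, a small partner of these factors, was at 4.66 and 5.46 TPM in Control, 24.3 and 15.6 in Day1, 7.2 and 6.77 in Day3, with 7.33 and 7.82 in Extracted and 10.1 and 10.2 in Treated. Day1 was far above the rest, and the rise was 1.76 ± 0.18 (limma, adjusted p = 0.00037). NFE2L1 itself was at 211 and 233 TPM in Control, 336 and 273 in Day1, 239 and 220 in Day3, with 128 and 132 in Extracted and 189 and 119 in Treated. Its Extracted libraries were below all of Control and the gel, but at -0.77 ± 0.18 it was not called against Control (limma, adjusted p = 0.067). Relative to Day3 it was lower in Extracted, at -0.82 ± 0.18 (limma, adjusted p = 0.014). None of the 10 was called in Day3 or Extracted, and in Treated MAFF rose (0.88 ± 0.18) while MAFG (-0.51 ± 0.12) and NFE2L2 (-0.36 ± 0.12) were called lower by limma. In Extracted relative to Day3, 2 of the 10 were higher and 1, NFE2L1, was lower.

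Of 12 genes of antigen processing 8 rose in Day1 (66.7%) and 4 in Day3 (33.3%, against 5.18% of all tested genes), with none called lower, and their medians were 0.54 and 0.31. The other 4 were below Control in Day1 without a call. Between Day3 and Day1 none was called, with 9 of 12 negative and a median of -0.19, whereas the 3 inducible subunits were positive, with a median of 0.20 and no call. B2M, the light chain of class I molecules, was at 1214 and 1170 TPM in Control, 2500 and 2193 in Day1, 1877 and 1864 in Day3, with 1508 and 1570 in Extracted and 1925 and 1499 in Treated. It was lowest in Control, and it rose by 0.97 ± 0.12 in Day1 (limma, adjusted p = 0.00088), 0.65 ± 0.12 in Day3 (limma, adjusted p = 0.011) and 0.51 ± 0.12 in Treated (limma, adjusted p = 0.013). HLA-B was at 52.4 and 69.8 TPM in Control, 141 and 107 in Day1, 89.0 and 124 in Day3, with 48.7 and 49.7 in Extracted and 90.4 and 82.8 in Treated, and rose by 1.01 ± 0.19 in Day1 (limma, adjusted p = 0.0064) and 0.79 ± 0.19 in Day3 (limma, adjusted p = 0.030). HLA-C rose in Day3 as well (0.54 ± 0.10). The interferon-induced transcription factor IRF1 rose in Day1 (0.87 ± 0.14, limma, adjusted p = 0.0039) and was at 0.27 ± 0.14 in Day3, which was not called. None of the 12 was called in Extracted, where the most abundant, B2M and HLA-C, were at 0.37 and -0.22. In Treated the calls included B2M, which was higher, and the peptide trimmer ERAP1 (-0.71 ± 0.16), which was lower.

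Of 11 genes for ubiquitin and the p97 unfoldase 3 rose in Day1 (27.3%), among them FAF2 (0.48 ± 0.12) and the ubiquitin fusion gene RPS27A (0.40 ± 0.11). None was called in Extracted, where RPS27A and UBB were at 0.43 and -0.32. In Treated 3 fell: the p97 cofactor NPLOC4 by 0.71 ± 0.16, the polyubiquitin gene UBB by 0.61 ± 0.094 and VCP, which encodes p97, by 0.57 ± 0.10 on the log2 scale. Of 8 genes of the proteotoxic stress response none was called in Day1, Day3 or Extracted, where the most abundant, HSPB1, was at 0.37, 0.43 and 0.34 and the next, DNAJB1, at 0.04, -0.0037 and -0.08. In Treated the small heat shock gene HSPB1 rose, from 549 and 555 TPM in Control to 1142 and 1178 (1.07 ± 0.14, limma, adjusted p = 0.00095). The chaperone genes HSPA1B (-0.58 ± 0.11), HSPA1A (-0.51 ± 0.14) and DNAJB1 (-0.36 ± 0.10) were called lower. HSPA1A and HSPA1B are near-identical copies, so their separate values are uncertain.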

How the data were processed

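Total RNA of 10 OVCAR-3 libraries was sequenced with Illumina protocols, per the labels. The submitters' processing notes name Trimmomatic, STAR, Cufflinks and the GRCh38 build. Versions and the strand setting are not given in the sources at hand. The authors deposited 1 table of TPM values, a unit that keeps no read depth, so the depth is unknown and no counting interval is given. Its 349 blank lines were skipped and the values of 91 repeated identifiers were added to their first entry, which left 58222 genes, of which 57959 (99.55%) matched GENCODE 29.

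Groups came from the sample labels. The deposited TPM values were transformed to log2(TPM + 1). The filter asked for 1 TPM or more in 2 or more libraries. Limma 3.58.1 in R 4.3.3, with a mean-variance trend, was fitted to all 10 libraries with a coefficient per group. All tests are two-sided. Calls rest on a p-value under 0.05 after Benjamini-Hochberg adjustment over the 15167 genes. The script was tested on simulated data. Errors of fold changes are standard errors from limma. This scale understates the fold change of low genes.

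The members, roles and lists were chosen with earlier results of these data known. Values in every library are given for the catalytic subunits, PSME1 and PSME2, and in each comparison for up to 6 called members with the largest rises and up to 6 with the largest falls. Of each related list up to 3 called genes are named, or else the 2 most abundant. The alternatives changed the pseudocount (0.1), the filter (none, or 5 TPM), the scaling (median of ratios, or an equal sum over nuclear protein-coding genes) and the libraries in the fit (the compared groups alone, or all but 1), or added a block for the replicate number. Figures were made in Python 3.11.15 with pandas 2.3.3 and Matplotlib 3.10.9. Of 32 PSM pseudogenes 9 were above 0, with 1.82 TPM the highest. Values of some genes in the lists of related genes are not reported here, and these genes stay in the lists' counts.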

Additional observations from a re-analysis of the deposited data

How the results depend on the processing

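With 2 libraries per group the counts of called members moved with the libraries in the fit. The counts over all tested genes moved between these fits as well, so such moves are not particular to the members. Leaving out each library in turn gave 1 to 21 called members in Day1 against Control (6 with all libraries), 0 to 8 in Day3 (4), 0 to 2 in Extracted (2), 4 to 25 in Treated (17), 1 to 12 in Extracted against Day3 (6), 1 to 32 in Treated against Extracted (15), and 0 in Day3 against Day1. In Day1 the count was 1 without either Control library, 3 without either Day1 library and 21 without either Treated library. In Day3 it was 0 without Control replicate 2 or Day3 replicate 1, 1 without Control replicate 1 or Day3 replicate 2, 2 without either Extracted library and 8 without either Treated library. In Extracted it was 0 without any Control, Day3 or Extracted library. In Treated it was 5 and 4 without Control replicate 1 and 2. In Extracted against Day3 it was 3 without either Control library, 1 without Day3 replicate 1 or either Extracted library, 2 without Day3 replicate 2 and 12 without either Treated library. In Treated against Extracted it was 1 without either Extracted library, 32 without Treated replicate 1 and 6 without Treated replicate 2 or any Control or Day3 library.

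With no filter the counts were 0 in Extracted, 11 in Treated, 3 in Extracted against Day3 and 7 in Treated against Extracted. Of all 27869 genes in that fit 48 were higher and 51 lower in Extracted, and 771 and 1913 in Treated. There were 740 and 1191 in Extracted against Day3, and 343 and 675 in Treated against Extracted. With the compared groups alone the member counts were 12 in Day3, 4 in Treated, 14 in Extracted against Day3 and 0 in Treated against Extracted. Of all 15167 genes 1575 were then higher and 1010 lower in Day3, and 547 and 1098 in Treated. There were 1506 and 2573 in Extracted against Day3, and 92 and 37 in Treated against Extracted. Nuclear protein-coding genes alone gave 3 members in Day1, beside 1037 higher and 2014 lower of 13140 genes. Median-of-ratios scaling gave 5 in Treated against Extracted, beside 969 higher and 722 lower of 15176 genes. For these the cause was not tested. The labels do not say whether same-numbered libraries were handled together. Deviations of same-numbered libraries had correlations from -0.022 to 0.087 between groups, which cannot settle how they were handled. With the replicate block the counts were 0 in Extracted, 3 in Extracted against Day3, 6 in Day1, 3 in Day3, 17 in Treated and 13 in Treated against Extracted. Of all 15167 genes 106 were then higher and 137 lower in Extracted, and 954 and 1606 in Extracted against Day3. There were 2244 and 955 in Day1, 740 and 669 in Day3, 945 and 2768 in Treated, and 458 and 1317 in Treated against Extracted.

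Of 34 called values of members named in the report, 5 were called in all 17 alternatives (PSMB9, PSMC4, PSMD3 and PSMD8 in Treated against Control, and PSMC4 in Extracted against Day3). Of the 59 single values of members none that was called changed sign. Named genes that are not members, in the related lists and around PSMC4, were not followed singly in this way. The count of lower genes around PSMC4 in Treated, an analysis chosen after seeing the data, was 28 to 36 over all alternatives, against 36 in the report.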
